A study of Mus musculus with 8 samples.

Results

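Small leucine-rich proteoglycans (SLRPs) are secreted matrix proteins built of leucine-rich repeats, and 7 of their genes were followed here in sorted mesenchymal cells of the mouse liver: Dcn, Bgn, Lum, Fmod, Ogn, Prelp and Aspn. They were taken by symbol after the gene identifiers of the 8 libraries had been matched to an annotation. All 7 were found among the 30395 identifiers listed, and all 7 passed the filter on low values that left 16446 genes for testing. RNA was sequenced with SMART-Seq2, which copies whole transcripts into cDNA and amplifies them by PCR. The groups were Gli1+ peribiliary mesenchymal cells 5 d after BDL (bile duct ligation, in which the outflow of bile is tied off), Gli1+ cells of uninjured liver, stellate cells 5 d after BDL and stellate cells of uninjured liver, with 2 libraries each. All mice, controls included, were Gli1:CreER+/-; Ai9+/- on a mixed background (C57BL/6, SWR/J) and 8 weeks of age, so that a Cre recombinase made from Gli1 can switch on a red fluorescent reporter. The sources used here do not say when the recombinase was induced, how the cells were gated or whether replicate libraries came from separate animals, so the p-values below measure only the spread between libraries, which may be technical.

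SLRPs coat collagen fibrils and set how thick the fibrils become and how they are spaced. Decorin (Dcn) and biglycan (Bgn) carry chondroitin or dermatan sulphate chains and also bind TGF-beta, and asporin (Aspn) is their relative without such a chain. Lumican (Lum) and fibromodulin (Fmod) carry keratan sulphate and share a collagen-binding site, PRELP (Prelp) has a basic end that binds heparan sulphate and anchors basement membranes to collagen, and osteoglycin (Ogn, also called mimecan) belongs to a separate branch of the family. Decorin is known as an abundant product of hepatic fibroblasts and stellate cells, and biglycan released from matrix is known as a ligand of Toll-like receptors on macrophages.

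Library totals were 11261775 to 19180370 reads. Gli1 was read at 6.61 and 2.39 CPM (reads per 1000000 in the library) in Gli1+ BDL libraries, 14.9 and 7.59 CPM in Gli1+ uninjured libraries, 0.0584 and 0 CPM in stellate BDL libraries and 0 in both stellate uninjured libraries. Lrat, the retinol-esterifying enzyme of stellate cells, lay between 5.16 and 35.9 CPM in the Gli1+ libraries and between 1832 and 2784 CPM in the stellate libraries. The Gli1+ libraries also held transcripts of mesothelial cells (8 markers, summed to 3193 to 11020 CPM per library, against 4.40 to 9.91 CPM in stellate libraries) and of bile duct cells (8 markers, 3143 to 15232 against 3.75 to 756 CPM). The 8 macrophage markers summed to 7276 and 39.3 CPM in the stellate uninjured libraries and to 875 to 2076 CPM in the other 6. In such bulk libraries, fewer cells of one kind and less RNA per cell cannot be told apart.

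The genes other than Lum fell into 2 patterns of level across the 4 groups. Dcn, Bgn and Prelp had their higher levels in stellate libraries, and Fmod, Ogn and Aspn had theirs in Gli1+ libraries, while the Lum ranges of the 2 populations overlapped in uninjured liver. Dcn took first or second place among all genes in each of the 4 stellate libraries, ranks 2 and 4 in Gli1+ uninjured libraries, and ranks 14 and 20 in Gli1+ BDL libraries. To compare the genes with each other, mean CPM were divided by merged exon length. Dcn was then the highest of the 7 in every group, at 634 CPM per kb in Gli1+ BDL cells, 2194 in Gli1+ uninjured cells, 5118 in stellate BDL cells and 6166 in stellate uninjured cells. In Gli1+ uninjured cells Lum (539 CPM per kb) came next, then Ogn (243), Bgn (225), Aspn (135), Prelp (105) and Fmod (73.8). The wide library range of Aspn overlapped those of Ogn, Bgn, Prelp and Fmod there. The ranges of Ogn and Bgn also overlapped, as did those of Prelp and Fmod. In stellate uninjured cells Prelp came second at 1247 CPM per kb, before Lum (862), Bgn (700) and Ogn (37.5), with Aspn and Fmod at 0.0481 and 0.0356. The Lum range overlapped both the Prelp and the Bgn range there.

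**Figure D1:**
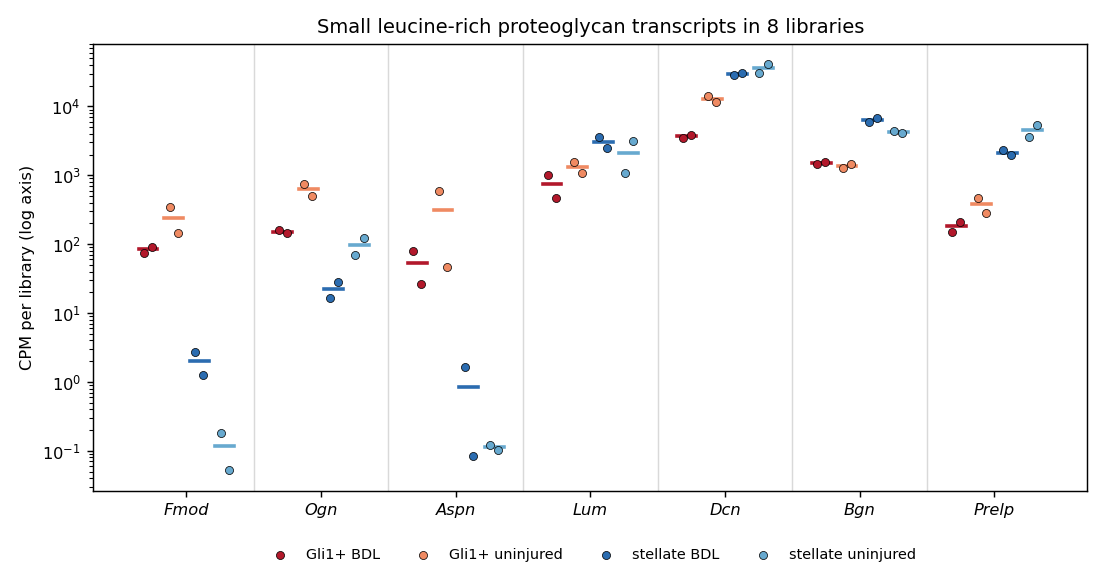
CPM of the 7 SLRP genes in each library (points, log axis) with the group mean of 2 libraries (bars), ordered within each gene as Gli1+ BDL, Gli1+ uninjured, stellate BDL and stellate uninjured. Fmod and Aspn lie at 0.0521 to 2.74 CPM in stellate libraries and at 26.1 to 587 CPM in Gli1+ libraries, while Prelp lies at 150 to 476 CPM in Gli1+ and at 1948 to 5383 CPM in stellate libraries.

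Most of the genes stand in clusters in the genome (GRCm38, the assembly also called mm10). Prelp (chromosome 1, 133910304 to 133921414, minus strand) and Fmod (chromosome 1, 134037254 to 134048277, plus strand) point away from each other across 116 kb without another protein-coding gene between them. Dcn (chromosome 10, 97479609 to 97518143, plus strand) is followed by Lum (97565128 to 97572703, plus strand) after 47.0 kb. Aspn (chromosome 13, 49544443 to 49567565, plus strand) and Ogn (49608046 to 49624501, plus strand) lie 40.5 kb apart, with the family member Omd between them. Bgn stands on chromosome X (73483602 to 73495933, plus strand). Prelp and Fmod thus differed in opposite directions between the populations, and Aspn and Ogn in the same direction. The family genes Optc (beside Prelp), Ecm2 (beside Aspn) and Omd did not pass the test used below in uninjured liver. Nor did Dcn and Lum on chromosome 10. Ogn and Aspn lie inside the antisense gene Cenpp, with which they share 0 and 7 exon bases, and Prelp shares 350 exon bases with the antisense gene Gm15851. Since the labels do not state a strand setting for the counting, reads of those shared bases cannot be assigned. Cenpp did not exceed 12.7 CPM and Gm15851 did not exceed 2.51 CPM in any library.

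**Figure D2:**
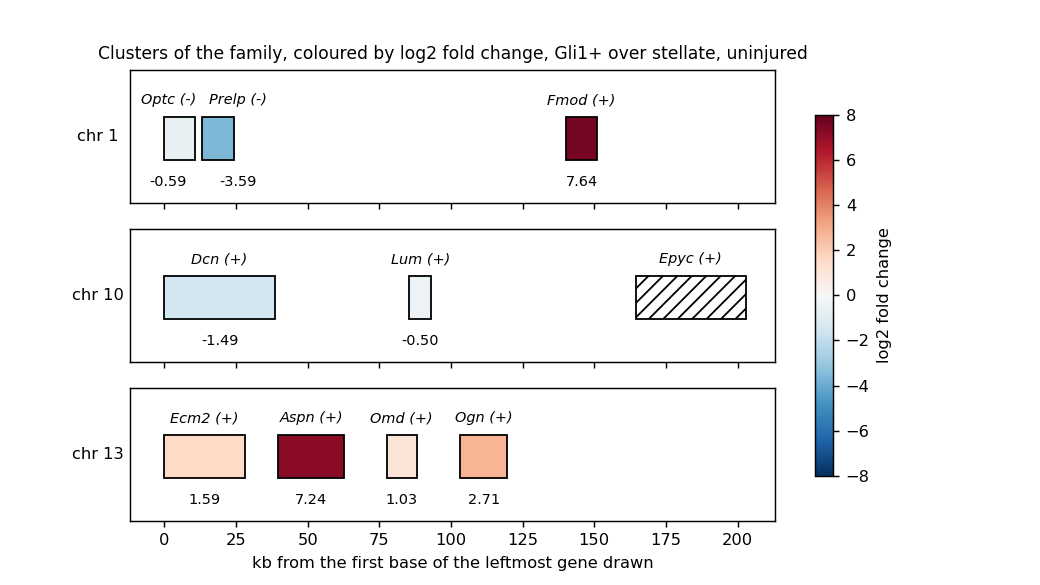
Chromosomal clusters of the family drawn to scale (kb from the first base of the leftmost gene), each gene as a box with its strand, coloured and numbered by its log2 fold change between Gli1+ and stellate cells of uninjured liver, with Epyc hatched because it was not tested. Fmod stands at 7.64 and Prelp at -3.59 on chromosome 1, and Aspn and Ogn at 7.24 and 2.71 on chromosome 13.

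The promoters of these 4 clustered genes are shown because their levels parted the populations most widely in uninjured liver. RefSeq promoter sequences were at hand for Fmod, Prelp, Ogn, Aspn and Bgn (5 of 7, assembly GRCm38.p6). The 250 bases before the RefSeq start are printed 5′ to 3′ on the strand of the gene. They span chr1:134037004-134037253 (plus) for Fmod, chr1:133921402-133921651 (minus) for Prelp, chr13:49607765-49608014 (plus) for Ogn and chr13:49544193-49544442 (plus) for Aspn. Capitals mark every match, on either strand, to 6 motifs. These were TATAAA for the TATA box, CCAAT for the binding site of NF-Y, GGGCGG for the Sp1-type GC box, TGANTCA for AP-1 sites, GACCACCCA for Gli factors and GGAATG for TEAD factors.
Fmod: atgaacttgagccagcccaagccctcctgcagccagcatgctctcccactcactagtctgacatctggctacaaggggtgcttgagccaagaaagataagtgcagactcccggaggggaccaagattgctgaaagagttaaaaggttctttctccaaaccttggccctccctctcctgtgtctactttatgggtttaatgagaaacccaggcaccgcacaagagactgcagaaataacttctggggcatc
Prelp: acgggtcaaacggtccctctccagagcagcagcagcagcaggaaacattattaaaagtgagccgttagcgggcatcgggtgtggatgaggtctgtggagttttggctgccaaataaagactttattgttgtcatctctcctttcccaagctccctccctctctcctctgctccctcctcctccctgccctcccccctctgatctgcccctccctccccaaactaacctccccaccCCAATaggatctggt
Ogn: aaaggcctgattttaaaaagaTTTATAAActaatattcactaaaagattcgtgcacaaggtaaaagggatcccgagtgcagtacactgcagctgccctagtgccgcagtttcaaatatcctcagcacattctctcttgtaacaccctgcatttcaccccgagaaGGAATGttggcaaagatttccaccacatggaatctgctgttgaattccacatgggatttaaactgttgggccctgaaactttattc
Aspn: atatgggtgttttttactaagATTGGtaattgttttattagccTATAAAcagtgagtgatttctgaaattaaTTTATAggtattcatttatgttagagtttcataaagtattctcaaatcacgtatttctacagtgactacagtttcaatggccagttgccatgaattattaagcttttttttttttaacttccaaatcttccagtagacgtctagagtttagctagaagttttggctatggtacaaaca
Fmod held none of the 6 motifs in this window. Prelp held CCAAT that begins 15 bases before the RefSeq start, which lies 13 bases inside the gene coordinates given above. The RefSeq start of Ogn lies 31 bases before its gene coordinates. Ogn held TATAAA in both orientations in overlapping letters 229 and 227 bases before the start, and GGAATG 86 bases before it. Aspn held CCAAT 229 bases before the start and TATAAA 207 and 178 bases before it, the last of these and CCAAT as the reverse complement. Among 32851 promoter windows of the same length, 12.4% held TATAAA, 33.8% CCAAT, 32.7% GGGCGG, 6.75% TGANTCA, 0.225% GACCACCCA and 12.6% GGAATG. The GC content was 51.2% for Fmod, 55.6% for Prelp, 42.0% for Ogn and 30.0% for Aspn, against a median of 52.4% over all windows. The Bgn window had 64.4% GC and 3 GC boxes, which begin 34, 10 and 6 bases before the start. A match describes letters and shows no binding.

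The first comparison asked how the family differed between Gli1+ and stellate cells of uninjured liver. Fmod, Ogn and Aspn were higher and Bgn and Prelp lower in Gli1+ cells, so that 5 of the 7 genes passed a Benjamini-Hochberg (BH) adjusted p of 0.05 in limma, against 11.1% of all genes tested (8.06% higher and 3.02% lower). Log2 fold changes were taken from log2(CPM + 1), and the median gene stood at 0.32 (0.12 after TMM scaling).

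Of the genes with keratan sulphate chains or their close relatives, Fmod was read at 345 and 143 CPM in Gli1+ uninjured libraries and at 0.183 and 0.0521 CPM, or 3 reads and 1 read, in stellate uninjured libraries. The groups stood far apart, with a log2 fold change of 7.64 ± 0.66 (SE) and a limma BH-adjusted p of 0.000428. The size of this log2 value depended on the 1 CPM added, since both stellate values lay below it. It was 9.26 with 0.25 CPM added instead (a pseudocount of 0.25) and 10.73 in edgeR. The ratio of pooled CPM was 1973, with an exact 95% interval of 770 to 7243 for counting error only. Prelp, the chromosome 1 neighbour, showed the reverse: 476 and 281 CPM in Gli1+ libraries, against 3631 and 5383 CPM in stellate libraries. It was 12.1-fold lower in Gli1+ cells (log2 fold change -3.59 ± 0.38, limma BH-adjusted p = 0.000942). Within a library, Prelp was read at 1.38 and 1.96 times the CPM of Fmod in Gli1+ libraries and at 19789 and 103247 times in stellate libraries, the last on a single Fmod read. Lum had 1565 and 1076 CPM in Gli1+ libraries, against 1067 and 3153 CPM in stellate libraries. These ranges overlapped, and the log2 fold change of -0.50 ± 0.57 (95% interval -1.80 to 0.80) did not pass (limma BH-adjusted p = 0.649).

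In the decorin branch, Aspn was read at 587 and 47.2 CPM in Gli1+ uninjured libraries and at 0.122 and 0.104 CPM, 2 reads each, in stellate uninjured libraries. The Gli1+ libraries differed from each other by a larger ratio than for any other of the 7 genes, yet both lay above both stellate libraries. The log2 fold change was 7.24 ± 1.19 (limma BH-adjusted p = 0.00640), and the pooled ratio 2294 (exact 95% interval 896 to 8421). As for Fmod, the log2 value depended on the scale, at 8.84 with a pseudocount of 0.25 and 11.09 in edgeR. Bgn had 1284 and 1459 CPM in Gli1+ libraries and 4390 and 4144 CPM in stellate libraries, and was 3.11-fold lower in Gli1+ cells (log2 fold change -1.64 ± 0.33, limma BH-adjusted p = 0.0151). Dcn had 14173 and 11440 CPM in Gli1+ libraries, against 31069 and 40920 CPM in stellate libraries. Although these ranges did not overlap, the log2 fold change of -1.49 ± 0.48 missed the threshold (limma BH-adjusted p = 0.0882). Ogn, of the separate branch, had 755 and 494 CPM in Gli1+ libraries and 70.5 and 122 CPM in stellate libraries, 6.52-fold higher in Gli1+ cells (log2 fold change 2.71 ± 0.42, limma BH-adjusted p = 0.00500).

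In uninjured liver 3 of the 7 genes lay higher and 3 lower in Gli1+ cells without overlap of libraries, as did 31.1% and 14.6% of all genes (45.7% in either direction). Bgn no longer passed without Gli1+ uninjured replicate 1 (limma BH-adjusted p = 0.0765) or without a filter on low values (limma BH-adjusted p = 0.0908), and Dcn passed with a pseudocount of 0.25 (limma BH-adjusted p = 0.0356). Without stellate uninjured replicate 2 the Lum fold change had the opposite sign (0.28), and a fit of these 4 libraries alone called 0 of the 7 genes, as it called 0 genes in all (3020 at an unadjusted p under 0.05). Marker lists differed with the populations: all 12 portal and adventitial fibroblast markers, all 8 mesothelial and 5 of 8 bile duct markers were higher in Gli1+ cells, and all 13 stellate markers lower. Fibroblast markers summed to 11259 and 7553 CPM in Gli1+ uninjured libraries and to 35.7 and 42.6 CPM in stellate uninjured libraries, where Gli1 was at 0. Stellate markers came to 2206 and 1499 CPM in Gli1+ libraries and to 46654 and 70745 CPM in stellate libraries. Most of these sums was Ecm1 alone, at 1467 and 902 CPM and at 30228 and 41517 CPM. Mesothelial markers came to 4057 and 11020 CPM in Gli1+ libraries and to 4.40 and 9.91 CPM in stellate libraries, and bile duct markers to 3917 and 3143 CPM and to 6.85 and 3.75 CPM, with Cldn4 at 0 in stellate libraries. Krt19 stands in both of these lists. Of 8 smooth muscle and pericyte markers, 4 were higher (Actg2, Acta2, Cnn1 and Myh11) and 2 lower (Rgs4 and Mylk) in Gli1+ cells, at sums of 1285 and 1367 CPM in Gli1+ libraries against 746 and 1229 CPM in stellate libraries. The part of these other cells in the SLRP differences was not tested.

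The same comparison was made between the populations 5 d after BDL. Fmod, Ogn and Aspn were again higher and Dcn, Bgn and Prelp lower in Gli1+ cells, 6 of 7 genes, against 6.80% of all genes (4.44% higher and 2.36% lower). The median gene stood at a log2 fold change of 0.23 (0.09 after TMM scaling).

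Dcn was read at 3506 and 3898 CPM in Gli1+ BDL libraries and at 28872 and 30883 CPM in stellate BDL libraries. The groups were 8.08-fold apart, with a log2 fold change of -3.01 ± 0.48 (SE, limma BH-adjusted p = 0.00813). The Dcn call was lost without a filter on low values (limma BH-adjusted p = 0.105) and without Gli1+ BDL replicate 1 or either stellate BDL library (0.0758 to 0.105). Bgn had 1467 and 1582 CPM in Gli1+ libraries and 5987 and 6729 CPM in stellate libraries (log2 fold change -2.06 ± 0.33, limma BH-adjusted p = 0.00816). Prelp had 150 and 212 CPM in Gli1+ libraries and 2325 and 1948 CPM in stellate libraries, with a log2 fold change of -3.57 ± 0.38 that lay close to its value in uninjured liver (limma BH-adjusted p = 0.00163). Lum, at 1000 and 476 CPM in Gli1+ libraries and 3592 and 2460 CPM in stellate libraries, did not overlap between the populations after BDL and missed the threshold (log2 fold change -2.11 ± 0.57, limma BH-adjusted p = 0.0668).

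Fmod had 75.2 and 92.4 CPM in Gli1+ BDL libraries and 2.74 and 1.27 CPM in stellate BDL libraries. Its log2 fold change was 4.85 ± 0.66 (limma BH-adjusted p = 0.00478). Ogn had 159 and 146 CPM in Gli1+ libraries and 16.3 and 28.5 CPM in stellate libraries, again without overlap, and a log2 fold change of 2.77 ± 0.42 (limma BH-adjusted p = 0.00677). Aspn had 80.4 and 26.1 CPM in Gli1+ libraries, against 1.63 CPM (28 reads) and 0.0849 CPM (1 read) in stellate libraries. The log2 fold change of Aspn, 4.80 ± 1.19, passed narrowly (limma BH-adjusted p = 0.0478), and its pooled ratio was 49.1 (exact 95% interval 34.0 to 73.5). It did not pass after TMM scaling (limma BH-adjusted p = 0.0559), in edgeR (BH-adjusted p = 0.0853), without a filter on low values (limma BH-adjusted p = 0.140) or without any one of the 4 BDL libraries (limma BH-adjusted p of 0.136 to 0.318).

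After BDL 3 of the 7 genes lay higher and 4 lower in Gli1+ cells without overlap of libraries, as did 34.8% and 19.0% of all genes (53.9% in either direction). The count of 6 became 1 without Gli1+ BDL replicate 1, 3 without Gli1+ BDL replicate 2, 2 when stellate BDL replicate 1 was left out and 3 when replicate 2 of that group was, while Prelp passed in each of the 14 alternatives. Fibroblast markers summed to 3855 and 3276 CPM in Gli1+ BDL and to 91.7 and 156 CPM in stellate BDL libraries, with 10 of 12 higher, and stellate markers to 1398 and 1440 CPM and to 29625 and 25631 CPM, with all 13 lower in Gli1+ cells. Bile duct markers, all 8 of them higher, summed to 15232 and 7368 CPM in Gli1+ libraries and to 181 and 756 CPM in stellate libraries, and mesothelial markers, also all 8 higher, to 5034 and 3193 CPM and to 7.41 and 9.26 CPM. Smooth muscle and pericyte markers, 3 higher and 2 lower of 8, came to 1181 and 1477 CPM in Gli1+ BDL libraries against 919 and 1500 CPM in stellate BDL libraries. Their part in the SLRP differences was not tested.

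**Figure D3:**
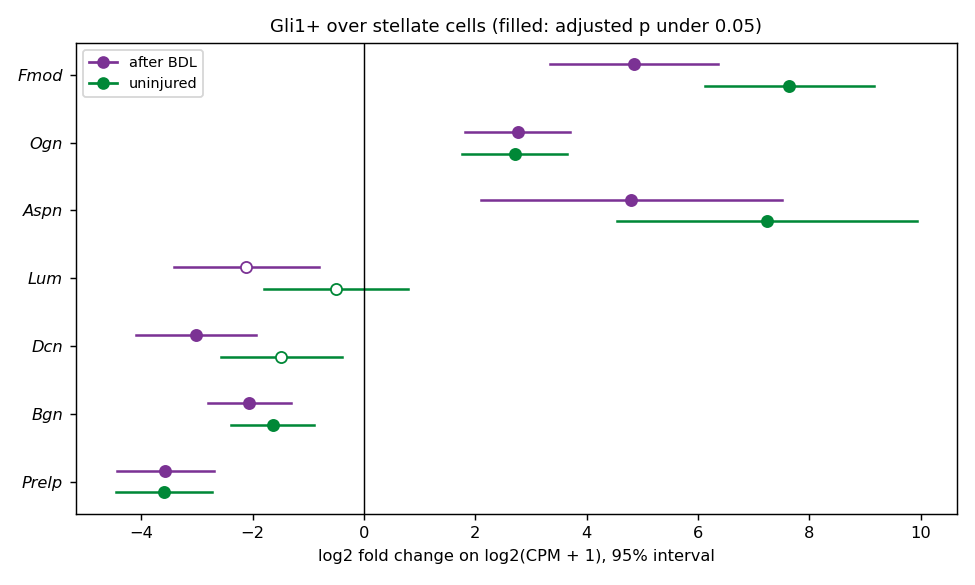
Log2 fold changes of the 7 SLRP genes between Gli1+ and stellate cells on the log2(CPM + 1) scale with 95% intervals, after BDL and in uninjured liver, with filled points where the limma BH-adjusted p was under 0.05. Fmod, Ogn and Aspn lie to the right of 0 (higher in Gli1+ cells) and Dcn, Bgn and Prelp to the left in both conditions, and the Prelp values of -3.57 and -3.59 almost coincide.

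The response to BDL was then examined in Gli1+ cells. None of the 7 genes passed the adjusted threshold, and neither did any gene of the 16446 (0% called by limma and 0 by edgeR), although 1812 genes and 3 of the 7 had an unadjusted limma p under 0.05. The 3 were Dcn, Ogn and Prelp, each with lower values after BDL. Ogn had 159 and 146 CPM in Gli1+ BDL libraries and 755 and 494 CPM in Gli1+ uninjured libraries, a log2 fold change of -1.99 ± 0.42 (SE, 95% interval -2.94 to -1.04, limma BH-adjusted p = 0.0905). Dcn had 3506 and 3898 CPM, against 14173 and 11440 CPM in uninjured libraries (log2 fold change -1.78 ± 0.48, 95% interval -2.87 to -0.70, limma BH-adjusted p = 0.163). Prelp had 150 and 212 CPM, against 476 and 281 CPM (log2 fold change -1.03 ± 0.38, limma BH-adjusted p = 0.338). In all 3 both BDL libraries lay below both uninjured libraries.

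Fmod and Lum also had lower values in both Gli1+ BDL libraries, at -1.40 ± 0.66 and -0.91 ± 0.57 on the log2 scale (BH-adjusted p of 0.507 and 0.666 in limma). The Aspn ranges overlapped (-1.84 ± 1.19, limma BH-adjusted p = 0.677). Bgn stood apart from the other 6 in sign, at 1467 and 1582 CPM in BDL and 1284 and 1459 CPM in uninjured libraries, with a log2 fold change of 0.15 ± 0.33 whose 95% interval ran from -0.59 to 0.90. In Gli1+ cells 5 of 7 genes thus lay lower and 1 higher without overlap, as did 16.2% and 25.1% of all genes (41.3% in either direction). The ratio of Bgn to Dcn CPM was 0.418 and 0.406 in Gli1+ BDL libraries, against 0.0906 and 0.128 in Gli1+ uninjured libraries. Fibroblast markers summed to 3855 and 3276 CPM in BDL and 11259 and 7553 CPM in uninjured libraries, bile duct markers to 15232 and 7368 CPM against 3917 and 3143 CPM, and hepatocyte markers to 2180 and 12385 CPM against 1053 and 177 CPM. Of these lists 0 of 12, 0 of 8 and 0 of 8 genes passed, as in the whole comparison, and their part in the SLRP values was not tested.

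In stellate cells BDL changed none of the 7 genes past the threshold in limma or edgeR, where 0.225% of all genes passed in limma, each of them higher. Ogn and Prelp had an unadjusted p under 0.05, as had 1968 genes in all. Ogn had 16.3 and 28.5 CPM in stellate BDL libraries and 70.5 and 122 CPM in stellate uninjured libraries, without overlap. Its log2 fold change of -2.05 ± 0.42 (95% interval -3.00 to -1.11, limma BH-adjusted p = 0.118) passed without stellate uninjured replicate 1 (limma BH-adjusted p = 0.0421). Prelp had 2325 and 1948 CPM, against 3631 and 5383 CPM in uninjured libraries (log2 fold change -1.05 ± 0.38, limma BH-adjusted p = 0.309). Dcn, at 28872 and 30883 CPM against 31069 and 40920 CPM, had a log2 fold change of -0.26 ± 0.48 with a 95% interval of -1.34 to 0.83.

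Bgn had 5987 and 6729 CPM in stellate BDL libraries and 4390 and 4144 CPM in stellate uninjured libraries, a log2 fold change of 0.57 ± 0.33 that did not pass (limma BH-adjusted p = 0.552). Fmod was read with 62 reads over both stellate BDL libraries, against 4 reads over both stellate uninjured libraries. The pooled ratio of Fmod was 19.1 (exact 95% interval 7.08 to 72.1, counting error only), while the log2 fold change of 1.39 ± 0.66 did not pass (limma BH-adjusted p = 0.465). At so few reads the size of this Fmod value depended on the settings, from 1.03 to 3.97 over the alternatives named below. Aspn had 29 reads against 4, of which 28 came from stellate BDL replicate 1 (pooled ratio 8.91, exact 95% interval 3.13 to 34.9). Its library ranges overlapped, as did those of Lum (log2 fold change 0.70 ± 0.57, limma BH-adjusted p = 0.701), and without stellate uninjured replicate 1 the Lum value was -0.09. In stellate cells 2 of 7 genes lay higher and 3 lower without overlap, as did 27.4% and 12.2% of all genes (39.6% in either direction). Fibroblast markers summed to 91.7 and 156 CPM in stellate BDL libraries and 35.7 and 42.6 CPM in stellate uninjured libraries, with Dpt higher (22.9 and 21.7 against 0.734 and 1.72 CPM, limma BH-adjusted p = 0.0252). Bile duct markers summed to 181 and 756 CPM against 6.85 and 3.75 CPM, hepatocyte markers to 1350 and 1168 CPM against 133 and 39.5 CPM, and endothelial markers to 2124 and 1431 CPM against 520 and 101 CPM. Acta2, the smooth muscle actin gene, had 128 and 348 CPM in stellate BDL and 11.1 and 16.1 CPM in stellate uninjured libraries (limma BH-adjusted p = 0.0252). Their part in the SLRP values of stellate cells was not tested.

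**Figure D4:**
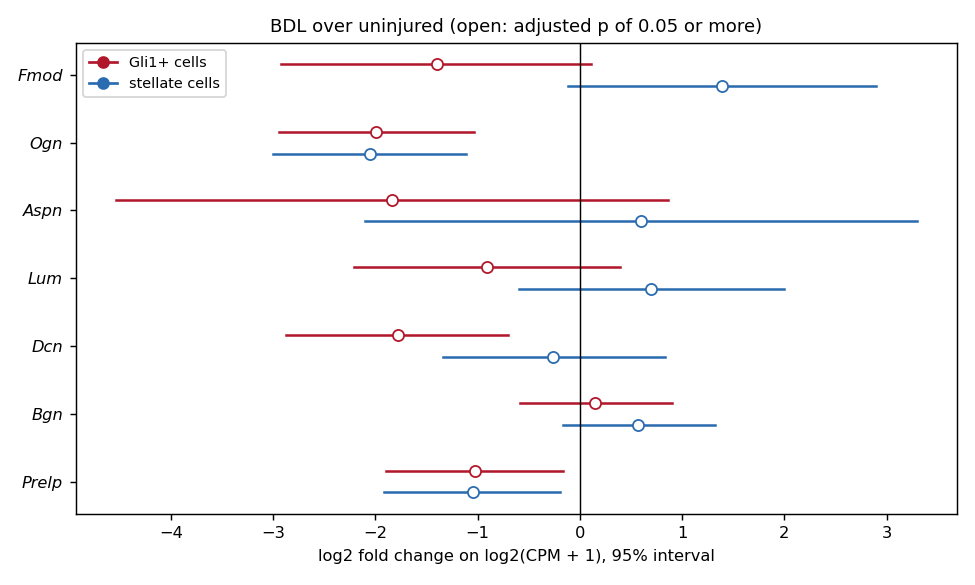
Log2 fold changes of the 7 SLRP genes between BDL and uninjured liver on the log2(CPM + 1) scale with 95% intervals, in Gli1+ cells and in stellate cells, all drawn open because no limma BH-adjusted p was under 0.05. Ogn (-1.99 and -2.05) and Prelp (-1.03 and -1.05) have nearly the same values in both populations, while Fmod stands at -1.40 in Gli1+ and at 1.39 in stellate cells. The stellate Fmod value rests on 62 reads in BDL and 4 reads in uninjured libraries, and its size depends on the scale.

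Whether the populations responded differently was tested directly as the difference of their BDL responses, Gli1+ minus stellate. None of the 7 genes passed in limma or edgeR, where 0.0122% of all genes passed in limma, and 1 of the 7, Fmod, had an unadjusted p under 0.05, as had 1230 genes. The difference was -2.79 ± 0.94 on the log2 scale for Fmod (SE, limma BH-adjusted p = 0.537) and -1.53 ± 0.67 for Dcn (limma BH-adjusted p = 0.669). The Fmod value, with 4 reads over both stellate uninjured libraries, depended on the scale. It was -3.97 with a pseudocount of 0.25 and -5.53 in edgeR (BH-adjusted p = 0.132). It was 0.06 ± 0.59 for Ogn and 0.02 ± 0.54 for Prelp, and their signs turned when some libraries were left out. The average response of both populations was fitted after these values had been seen. It was -2.02 ± 0.29 for Ogn (95% interval -2.69 to -1.35), which passed (limma BH-adjusted p = 0.0308), against 0.949% of all genes (0.784% higher and 0.164% lower). Prelp, at -1.04 ± 0.27, and Dcn, at -1.02 ± 0.34, did not (limma BH-adjusted p = 0.117 and 0.197). In the same average response 4 of 8 hepatocyte markers (Cps1, Fgb, Apoa1 and Alb, list median 4.42), Lyve1, Spp1 and Acta2 passed as higher, and their part in the Ogn value was not tested. The Ogn call was lost without a filter on low values (limma BH-adjusted p = 0.101), with the replicate block (0.0527) and without either Gli1+ BDL, either Gli1+ uninjured or either stellate BDL library, with adjusted p-values of 0.0785 to 0.145.

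The summed CPM of the 7 genes showed how much of each transcriptome they took. Other family genes were not counted in these sums and shares. The 7 genes made up 0.644 and 0.643% of Gli1+ BDL libraries, 1.92 and 1.49% of Gli1+ uninjured libraries, 4.08 and 4.20% of stellate BDL libraries and 4.02 and 5.37% of stellate uninjured libraries. Gli1+ BDL libraries were the lowest and did not overlap any other group. Per exon length, Dcn held 42.6 and 52.3% of the total of the 7 genes in Gli1+ BDL libraries, 59.8 and 65.9% in Gli1+ uninjured libraries, 61.5 and 66.6% in stellate BDL libraries and 70.9 and 66.7% in stellate uninjured libraries. Bgn held 17.1 and 20.3%, 5.19 and 8.05%, 12.2 and 13.9%, and 9.58 and 6.46% in the same order. Prelp held 2.94 and 4.60% in Gli1+ BDL libraries, 3.25 and 2.61% in Gli1+ uninjured libraries, 8.00 and 6.78% in stellate BDL libraries and 13.4 and 14.2% in stellate uninjured libraries.

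The fibrils that SLRPs bind are made mostly of collagens I and III, so the 7 genes were also set against Col1a1, Col1a2 and Col3a1. The summed CPM of the 7 genes was 0.448 and 0.421 times that of these 3 collagen genes in Gli1+ BDL libraries, 1.84 and 1.76 times in Gli1+ uninjured libraries, 10.003 and 5.52 times in stellate BDL libraries and 27.9 and 22.8 times in stellate uninjured libraries. The 4 groups did not overlap, and BDL libraries had the lower ratio in both populations. Collagen sums were 14367 and 15277 CPM in Gli1+ BDL, 10454 and 8495 CPM in Gli1+ uninjured, 4079 and 7614 CPM in stellate BDL and 1440 and 2360 CPM in stellate uninjured libraries. The lower ratio in stellate BDL libraries thus went with larger collagen sums, while the 7 genes summed to 40797 and 42049 CPM after BDL against 40228 and 53722 CPM in uninjured liver. In Gli1+ cells the 7 genes summed to 6438 and 6432 CPM after BDL against 19184 and 14941 CPM in uninjured liver. These ratios were not tested.

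**Figure D5:**
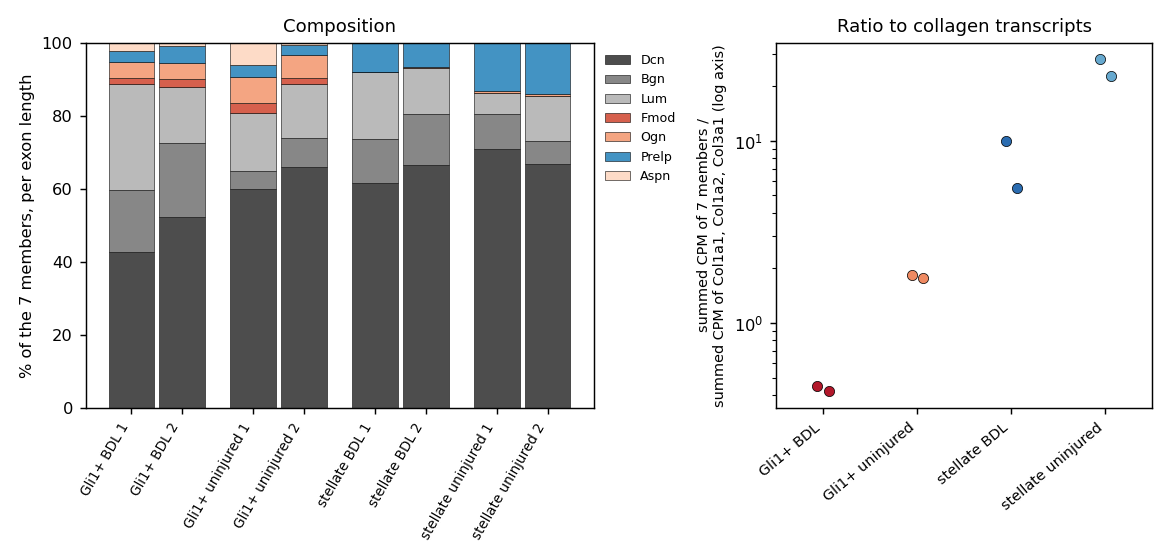
Left, share of each of the 7 SLRP genes in their total per exon length in each library (stacked bars, percent). Right, summed CPM of the 7 genes over summed CPM of Col1a1, Col1a2 and Col3a1 in each library (log axis). Dcn takes 42.6 to 70.9% of every bar, and the ratio to collagen lies between 0.421 and 0.448 in Gli1+ BDL libraries and between 22.8 and 27.9 in stellate uninjured libraries.

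Of the other family genes, 10 were found and 8 tested, and 0 of the 8 passed in the population and BDL comparisons by limma or edgeR. Between 1 and 2 of them had an unadjusted limma p under 0.05 in each of these comparisons. In the average BDL response Omd, Ecm2 and Podn had lower values, at unadjusted limma p of 0.0132, 0.0474 and 0.00253. None of them passed there after adjustment (limma BH-adjusted p = 0.186, 0.307 and 0.0961). Podn, the gene of podocan, had the highest mean CPM of the other family genes in each group, at 80.0 and 110 CPM in Gli1+ BDL, 273 and 423 CPM in Gli1+ uninjured, 14.2 and 63.3 CPM in stellate BDL and 92.5 and 139 CPM in stellate uninjured libraries. In stellate BDL replicate 1 it lay below Ecm2 and Tsku (28.8 and 15.8 CPM). Its BDL values lay below the uninjured ones in both populations without passing (-1.84 ± 0.63 and -1.87 ± 0.63 on the log2 scale, BH-adjusted p of 0.282 and 0.275 in limma). Omd, the gene of osteomodulin, had 2.02 and 15.5 CPM in Gli1+ BDL, 20.5 and 15.7 CPM in Gli1+ uninjured, 0 and 0.680 CPM in stellate BDL and 11.1 and 6.10 CPM in stellate uninjured libraries. Ecm2, which precedes Aspn on chromosome 13, had 3.95 and 12.2 CPM in Gli1+ BDL libraries against 154 and 27.0 CPM in Gli1+ uninjured libraries, and 28.8 and 17.6 CPM in stellate BDL libraries against 13.6 and 31.7 CPM in stellate uninjured libraries. Tsku, the gene of tsukushi, ranged from 5.75 to 33.6 CPM, and Chadl, Chad, Optc and Podnl1 did not exceed 17.9 CPM. Epyc, the epiphycan gene beyond Lum, was read in Gli1+ uninjured replicate 1 alone (26.4 CPM) and was not tested, nor was Nyx.

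The enzymes that build the chains of SLRPs were compared in the same way. The Gli1+ libraries held the bile duct and mesothelial markers given above. The part of such cells in this and the following gene lists was not tested. Of 26 tested genes of chondroitin and dermatan sulphate synthesis, 2 were higher and 6 lower in Gli1+ cells of uninjured liver, where 8.06% of all genes were higher and 3.02% lower. The count of higher genes is near that background, and the median log2 fold change was 0.16 (0.32 over all genes). Among the lower ones, Chsy1, a chondroitin synthase, had 7.46 and 16.4 CPM in Gli1+ libraries and 158 and 129 CPM in stellate libraries, and Chst15, a chondroitin sulphotransferase, 54.8 and 19.9 against 401 and 274 CPM. Papss2, which makes the sulphate donor, had 55.3 and 36.7 against 274 and 436 CPM, and Dse, the epimerase that turns chondroitin into dermatan sulphate, 139 and 54.1 against 322 and 366 CPM. Their limma BH-adjusted p-values were 0.00297, 0.00578, 0.00282 and 0.0283. The higher ones were Csgalnact1, which starts the chondroitin chain (45.3 and 11.8 CPM against 0.0612 and 0 CPM, limma BH-adjusted p = 0.0214), and Ugdh, which makes UDP-glucuronate (248 and 185 against 14.0 and 64.8 CPM, limma BH-adjusted p = 0.0225). After BDL 0 of the 26 were higher and 5 lower (4.44% and 2.36% of all genes, median log2 fold change -0.28, against 0.23 over all genes), again among them Chsy1, Chst15, Papss2 and Dse (log2 fold changes -2.63, -3.00, -2.35 and -2.05). Leaving out 1 library gave 3 to 5 lower genes in uninjured liver, 3 without either stellate uninjured or either stellate BDL library, and 1 higher gene without either Gli1+ uninjured library, stellate uninjured replicate 2 or either stellate BDL library. After BDL it gave 0 to 5 lower genes, 0 or 1 without any one of the 4 BDL libraries, and 1 higher gene without either stellate uninjured library.

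Of 9 tested genes of keratan sulphate synthesis, 4 were higher and 1 lower in Gli1+ cells of uninjured liver (8.06% and 3.02% of all genes), with a median log2 fold change of 0.69 (0.32 over all genes). Chst4, a sulphotransferase, had 73.0 and 232 CPM in Gli1+ libraries and 0.0612 and 0.104 CPM in stellate libraries (limma BH-adjusted p = 0.00149), and B3gnt7, which extends the chain, 11.2 and 36.7 CPM against 0 in both (limma BH-adjusted p = 0.0111). Chst1, the keratan sulphate galactose sulphotransferase, had 7.64 and 5.53 CPM against 0 in both, and B4galt1, a galactosyltransferase, 574 and 590 against 246 and 253 CPM (limma BH-adjusted p = 0.0324 and 0.0237). Fut8, which fucosylates the core of N-glycans, was lower (58.1 and 59.1 against 117 and 195 CPM, limma BH-adjusted p = 0.0461). After BDL only Chst4 of the 9 passed, at 38.9 and 23.6 CPM in Gli1+ libraries and 0.0584 and 0.0849 CPM in stellate libraries (limma BH-adjusted p = 0.0102), against 6.80% of all genes in either direction, and the median of the 9 was 0.28 (0.23 over all genes). Leaving out 1 library left 2 or 3 higher genes in uninjured liver, 2 without Gli1+ uninjured replicate 1, either stellate uninjured or either stellate BDL library. The Fut8 call was lost without any single library other than stellate uninjured replicate 1, and the Chst4 call after BDL without any one of the 4 BDL libraries, while 2 genes were higher after BDL without either Gli1+ uninjured library.

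Of 11 tested collagen genes whose products SLRPs bind, 6 were higher and 1 lower in Gli1+ cells of uninjured liver (8.06% and 3.02% of all genes), with a median log2 fold change of 1.84 (0.32 over all genes). Col12a1 had 43.6 and 19.7 CPM in Gli1+ libraries and 0.0612 and 0.0521 CPM in stellate libraries, Col1a1 2821 and 2166 against 187 and 345 CPM, Col5a2 310 and 761 against 49.2 and 85.2 CPM, and Col3a1 5326 and 4558 against 826 and 1380 CPM. The lower one was Col14a1, a fibril-associated collagen whose product binds decorin, at 1071 and 651 CPM in Gli1+ libraries and 2285 and 3116 CPM in stellate libraries (log2 fold change -1.67 ± 0.37, limma BH-adjusted p = 0.0225). After BDL 3 were higher, Col11a1, Col1a1 and Col6a2, and Col14a1 was lower, at 249 and 358 CPM in Gli1+ against 2119 and 2392 CPM in stellate libraries (log2 fold change -2.91 ± 0.37, limma BH-adjusted p = 0.00347). In that comparison 4.44% of all genes were higher and 2.36% lower, and the median of the 11 was 1.17 (0.23 over all genes). The 6 higher genes became 3 without Gli1+ uninjured replicate 1. The uninjured Col14a1 call was lost without Gli1+ uninjured replicate 2, stellate uninjured replicate 2 or either stellate BDL library. After BDL, 0 genes were higher without any one of the 4 BDL libraries, and Col14a1 did not pass without Gli1+ BDL replicate 1 or stellate BDL replicate 2.

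Of 15 tested growth factors, receptors and other partners that SLRPs bind, 4 were higher and 0 lower in Gli1+ cells of uninjured liver (8.06% and 3.02% of all genes), with a median log2 fold change of 1.22 (0.32 over all genes). They were Met, the hepatocyte growth factor receptor (59.1 and 119 against 0.0612 and 0.0521 CPM), Tgfb2 (144 and 212 against 0.122 and 26.9 CPM), Vwf, the gene of the clotting protein von Willebrand factor (21.0 and 11.4 against 0.122 and 0 CPM) and Tgfb3 (167 and 113 against 25.0 and 10.9 CPM). Their limma BH-adjusted p-values were 0.00137, 0.0421, 0.0102 and 0.00586. After BDL Met, Vwf and Tgfb3 were higher, and Lrp1, an endocytic receptor that takes up decorin, was lower, at 286 and 460 CPM in Gli1+ libraries and 1553 and 1574 CPM in stellate libraries (log2 fold change -2.11 ± 0.35, limma BH-adjusted p = 0.0103). These 3 and 1 stood against 4.44% and 2.36% of all genes, and the median of the 15 was 0.49 (0.23 over all genes). The 4 became 1 without Gli1+ uninjured replicate 1. After BDL the 3 became 0 without Gli1+ BDL replicate 1 and 1 without any other BDL library, and the Lrp1 call was lost without Gli1+ BDL replicate 1 or either stellate BDL library.

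Among 11 tested proteases that cut SLRPs, 3 were higher and 1 lower in Gli1+ cells of uninjured liver (8.06% and 3.02% of all genes), with a median log2 fold change of 1.09 (0.32 over all genes). Mmp3, stromelysin, had 154 and 81.2 CPM in Gli1+ libraries and 0.183 and 0 CPM in stellate libraries, Mmp7, matrilysin, 81.3 and 32.2 against 0.0612 and 0 CPM, and Bmp1, which trims the propeptide of biglycan, 228 and 120 against 42.6 and 51.3 CPM (limma BH-adjusted p = 0.0185, 0.00240 and 0.0217). Adamts1 was lower (62.7 and 57.1 against 457 and 698 CPM, limma BH-adjusted p = 0.000809). After BDL Mmp7 was higher (523 and 244 CPM in Gli1+ against 0.0584 and 0.0849 CPM in stellate libraries, limma BH-adjusted p = 0.000906) and Adamts1 lower (138 and 101 against 350 and 391 CPM, limma BH-adjusted p = 0.0204), 1 gene each where 4.44% and 2.36% of all genes passed, with a median of the 11 at 0.42 (0.23 over all genes). The Adamts1 call after BDL was lost without any one of the 4 BDL libraries, 2 genes were lower without either stellate uninjured library and 2 higher without either Gli1+ uninjured library.

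Other proteoglycan core proteins went both ways, 7 of 19 tested genes higher and 2 lower in Gli1+ cells of uninjured liver and 5 higher and 4 lower after BDL. Over all genes 8.06% were higher and 3.02% lower in uninjured liver, and 4.44% and 2.36% after BDL. The list's median log2 fold change was 1.65 in uninjured liver and 0.85 after BDL (0.32 and 0.23 over all genes). Prg4, lubricin, had 151 and 825 CPM in Gli1+ libraries and 3.06 and 1.04 CPM in stellate uninjured libraries, Spock2, testican, 124 and 102 against 0 and 0.0521 CPM, and Gpc3, a glypican, 650 and 744 against 5.26 and 15.0 CPM. The lower ones were Gpc4, another glypican, at 78.2 and 92.2 CPM in Gli1+ against 620 and 1570 CPM in stellate libraries, and Sdc3, a syndecan, at 104 and 37.1 against 619 and 281 CPM. All 5 passed in the same direction after BDL, where Col18a1 was higher as well and Gpc6 and Tgfbr3, or betaglycan, were lower. Vcan, the gene of versican, was the gene of this list that passed for BDL in stellate cells, at 18.4 and 48.2 CPM in BDL and 0.0612 and 0.0521 CPM in uninjured libraries (limma BH-adjusted p = 0.0252, against 0.225% of all genes). In Gli1+ uninjured libraries Vcan had 53.9 and 38.6 CPM, against the same stellate values (limma BH-adjusted p = 0.00123). The 7 and 2 became 4 and 1 without Gli1+ uninjured replicate 2, and 1 was lower without stellate uninjured replicate 1 or either stellate BDL library. After BDL 1 or 2 were higher and 0 to 2 lower without any one of the 4 BDL libraries. For BDL in stellate cells the count of 1 became 0 without any one of the 4 Gli1+ or 2 stellate BDL libraries, 3 without stellate uninjured replicate 1 and 2 without stellate uninjured replicate 2.

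Genes with the most similar pattern were found by Pearson correlation of log2(CPM + 1) over the 8 libraries among 10290 genes with a mean of at least 10 CPM. With 8 points in 4 groups, these correlations mostly reflect the group means, and they are given as descriptions. Dcn was closest to Col14a1 (r = 0.991), then to Adcyap1r1 (0.985) and St5 (0.982). Prelp was closest to Nr1h5 (0.996), Adamts10 (0.996) and Ecm1 (0.994), and Ecm1 had 617 and 554 CPM in Gli1+ BDL, 1467 and 902 CPM in Gli1+ uninjured, 13796 and 10640 CPM in stellate BDL and 30228 and 41517 CPM in stellate uninjured libraries. Fmod was closest to Ufc1 (0.996), Fmo2 (0.991) and Vsig2 (0.990), and Aspn to Spink4 (0.990), Mphosph6 (0.990) and Dkk2 (0.989). A correlation leaves out the size of the differences. Ufc1 ranged only from 67.6 to 136 CPM where Fmod ranged from 0.0521 to 345 CPM. Mphosph6 ranged from 12.7 to 63.0 CPM where Aspn ranged from 0.0849 to 587 CPM. Ogn was closest to Tmem42 (0.988), Plekhb2 (0.976) and Gas1 (0.969), Bgn to Raph1 (0.990), Gm45714 (0.987) and Scly (0.980), and Lum to Jcad (0.973), Zwint (0.969) and Tmem30a (0.951). Among the 7 genes themselves, Fmod and Aspn followed each other most closely (r = 0.97), before Dcn and Prelp (0.94), and Bgn ran opposite to Fmod (-0.93) and Aspn (-0.92).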

How the data were processed

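RNA was sequenced from 8 libraries in 4 groups. The authors deposited CPM, 1 column per library, called normalized counts per the file headers. FastQC, STAR 2.5.2b, featureCounts, DESeq2 and mm10 appear, per the submitters' processing notes, without roles. Annotation, strand setting and multi-mapping were not stated in the sources used here. Whole reads were recovered from the CPM (100.0% of values whole within 0.1 read). Identifiers were matched without their version to GENCODE vM21 (30233 of 30395), and promoters came from RefSeq. The list genes Kera and Gpc5 were not analysed here.

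limma-trend (limma 3.58.1, R 4.3.3) was fitted to log2(CPM + 1) of genes that reached 1 CPM in 2 or more libraries, as 4 group means with 4 residual degrees of freedom, BH-adjusted over all genes. Values are CPM with the spread of 2 libraries; fold changes carry the model's SE. A run of the fit on simulated data covered only the comparison of uninjured populations, with the same dispersion for every gene, and no result here rests on it. edgeR 4.0.16 on recovered reads was an alternative, with others named below. Named were the 7 genes, the other tested family genes, up to 4 called genes per list, direction and comparison with the largest fold changes, and the 3 genes most correlated with each member. Members and lists were chosen with earlier results of these data known. Intervals and count floors cover counting error only, since PCR copies are not independent molecules.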

Additional observations from a re-analysis of the deposited data

How the results depend on the processing

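Alternatives were a pseudocount of 0.25, no filter on low values, TMM scaling, edgeR on recovered reads, a fit of only the compared libraries, the replicate number as a block, and leaving out each library. The 5 SLRP genes called between uninjured populations became 4 without a filter (Bgn was lost), 0 with only the libraries compared, and 4 to 5 when 1 library was left out. The 6 called after BDL became 4 without a filter (Dcn and Aspn were lost), 5 after TMM scaling and 5 by edgeR (Aspn was lost in both), and 1 to 7 when 1 library was left out. The counts of 0 for BDL in Gli1+ cells and for the difference of responses held in each alternative, and that in stellate cells became 0 to 1 when 1 library was left out. For the average BDL response, chosen after seeing the data, the 1 called gene became 0 without a filter or with the replicate block, and 0 to 1 when 1 library was left out. The cause was not tested.

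Signs turned only when 1 library was left out. The range was then -1.28 to 0.28 for Lum between uninjured populations, -0.09 to 1.48 for Lum and -0.04 to 1.24 for Aspn in the stellate BDL response, and -0.33 to 0.45 for Ogn and -0.36 to 0.40 for Prelp in the difference of responses. Over all alternatives 447 values kept their direction and their side of the threshold, 34 lost and 5 gained a call, and 10 turned sign.

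Same-numbered libraries did not deviate together in every compared pair of groups (correlations of -0.05, 0.08, 0.11 and 0.00), so the replicate numbers were not taken as pairs. With the replicate block the called SLRP genes numbered 5, 6, 0, 0 and 0 in the 5 comparisons, and all genes 1566, 943, 0, 18 and 0, against 1822, 1118, 0, 37 and 2 without it. All genes called between uninjured populations numbered 810 without a filter, 0 with only the libraries compared and 1022 to 1808 when 1 library was left out, and after BDL 621 by edgeR and 145 to 1375. For BDL in Gli1+ cells the 0 became 127 without a filter and 0 to 5. For BDL in stellate cells the 37 became 6 without a filter, 22 after TMM scaling, 62 by edgeR, 0 with only the libraries compared and 0 to 219. For the difference the 2 became 0 without a filter, 11 by edgeR and 0 to 33, and for the average response the 156 became 0 without a filter, 103 after TMM scaling, 42 with the block and 0 to 361. Depth limited Fmod and Aspn in stellate uninjured libraries and Aspn in stellate BDL replicate 2, since 3 reads equal 0.156 to 0.255 CPM over the stellate libraries.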
